A study of Homo sapiens with 39 samples.

Results

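The comparison described here set RPE1 cells that had lost TRIM37 against RPE1 wild type cells, by RNA sequencing of total RNA. RPE1 (hTERT-RPE1) is a human retinal pigment epithelial line immortalised with telomerase. The TRIM37 knockout group held 9 libraries and the wild type group 9 libraries, both untreated, of 39 libraries in the series. The labels number the wild type libraries in 3 sets of 3 and the knockout libraries from 1 to 9. They explain no set and do not give separate cultures, so the q values may measure technical spread only. The labels do not say whether the knockout is 1 clone, so a difference between 2 derived lines cannot be told apart from an effect of losing TRIM37. The authors' deposited table holds 23710 gene symbols, and the genes described are the 13002 with the Status OK. A further 10430 had the Status Low, with mean counts up to 9.99, and 278 had the Status Outlier, and neither kind carried a usable q. The same study compared CHP-134 neuroblastoma cells, as 2 TRIM37 mutant clones (clone 1 and clone 2, 3 libraries each) against 3 wild type libraries, and RPE1 cells carrying a doxycycline-inducible TRIM37, as 2 clones (TetOn clone 4 and TetOn clone 5), each with 3 libraries treated with 1 µM doxycycline for 24 h against 3 untreated. These serve below only to place the knockout's genes.

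TRIM37 belongs to the tripartite motif family of ubiquitin ligases, enzymes that attach ubiquitin to other proteins through a RING domain. It is known for restraining the assembly of centrosome-like bodies outside centrioles and for acting on peroxisomal import, and it has been linked to Polycomb-type histone ubiquitination. Its loss in people causes mulibrey nanism, and its gain sets how cells respond when centriole duplication is blocked. RPE1 cells are a standard line for such work because their p53 pathway is intact. In culture they have a flat, fibroblast-like form with abundant actin stress fibres and matrix.

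The tables hold no value per library. A pair of quantities is therefore given for a gene: the authors' log2 fold change of knockout over wild type with its standard error (SE), and a count level implied for each group, computed from the deposited mean count and fold change on the assumption that the 9 and 9 libraries weigh equally. The same computation was checked on the CHP-134 wild type libraries, which enter 2 tables. Over 10983 genes their 2 implied levels differed by a constant log2 of -0.0892, and 95% of genes lay within 0.0226 of it. For 271 of these that changed at least 2-fold in clone 2, 95% lay within 0.123, so at such counts the levels hold well also where a gene moved strongly. Implied levels of genes with lower mean counts were not checked. Count levels are not scaled for transcript length and are compared only within a gene. A gene is called at the authors' q under 0.05, and "rose" and "fell" are used of called genes.

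TRIM37 had an implied level of 654 counts in knockout libraries and 2530 in wild type libraries. Its log2 fold change in the authors' deposited table was -1.95, SE 0.0461. The header names no numerator and the direction of the table was set by this gene, so it cannot show whether the groups were swapped. The directions of the CHP-134 and TetOn tables were set by TRIM37 as well, so its sign in them is no result.

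Retinal pigment epithelial identity was weak in both groups. Of 13 defining markers, 4 had the Status OK and 9 the Status Low, none of these above a mean count of 9.95 and 3 at 0. The visual cycle isomerase gene RPE65 had a mean count of 0.173, and the pigment enzyme gene TYR of 0, in the authors' deposited table. Eye field regulators were measured. OTX2 was at -0.0406 (q = 0.484) and PAX6 at 0.0329 (q = 0.47) on the log2 scale of the authors' deposited table, while MITF, the master regulator of pigment cells, fell by 0.765, SE 0.0464. The implied level of MITF was 1590 counts in knockout libraries and 2690 in wild type libraries. Of 7 epithelial markers 4 had the Status OK, 2 called higher and 1 lower in the knockout, and 3 of the 4 lie on chromosome 12. The other 3 had the Status Low, CDH1 and EPCAM among them, with mean counts of 1.7 and 0.848 in the authors' deposited table. The leukocyte marker PTPRC had the Status Low too, at 7.38. VIM, the mesenchymal intermediate filament gene, stood at 294000 counts in knockout libraries and 232000 in wild type libraries. RPE65, TYR, OTX2, CDH1, EPCAM, PTPRC and VIM were chosen after their values were seen.

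Changes were widespread and mostly small. In all 6963 of 13002 genes were called (53.6%), 3460 higher in the knockout (26.6%) and 3503 lower (26.9%). These shares are the background for every count of members below, but the called share rose with mean count. It was 32.5% at mean counts of 10 to 30, 60.4% at 1000 to 10000 and 75.8% from 10000 upward. For lists of scarce or abundant genes the background is therefore only rough. The median log2 fold change over all 13002 genes was -0.00219. Among called genes 76.4% differed by less than 1.5-fold and 47.8% by less than 1.2-fold. At 1 log2 unit or more, 359 genes (2.76%) were higher and 421 (3.24%) lower. At 2 units or more it was 119 (0.915%) and 124 (0.954%), and at 4 units or more 22 (0.169%) and 25 (0.192%). Tested against a 1.5-fold change, 888 genes were called, 426 higher and 462 lower. After each gene's ratio of change to SE was divided by the central spread of that ratio over all genes, 1264 were called.

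**Figure D1:**
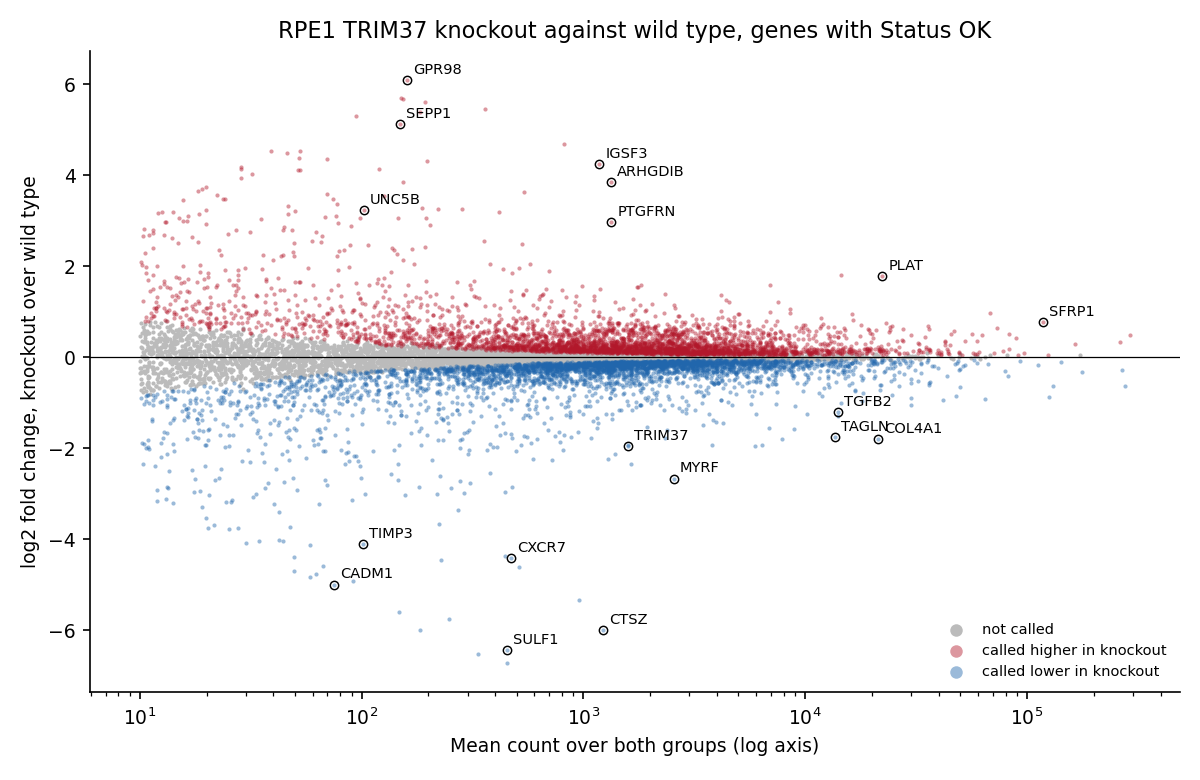
Each point is 1 of 13002 genes with the Status OK, placed by the authors' mean count over both groups (x, log axis) and log2 fold change of knockout over wild type (y); red and blue mark genes called higher and lower in the knockout. Small changes fill both sides along the whole axis, and IGSF3, ARHGDIB and PTGFRN above and CTSZ and MYRF below stand apart where mean counts reach 1000.

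Among abundant genes, those with a mean count of at least 1000, the widest rises and falls joined cell surface, secreted and signalling proteins. IGSF3, which encodes an immunoglobulin superfamily membrane protein, had an implied 2240 counts in knockout libraries and 118 in wild type libraries (log2 fold change 4.25, SE 0.0866, in the authors' deposited table). PTGFRN, which encodes a tetraspanin partner, had 2360 counts in knockout libraries and 299 in wild type libraries. IGSF3 and PTGFRN are neighbours among the genes of chromosome 1 with the Status OK, and the genes around them moved little: CD58, on one side, was at 0.423 and TTF2, on the other, at 0.0709 (q = 0.0845) on the log2 scale of the authors' deposited table. CD58 and TTF2 were chosen after their values were seen. ARHGDIB, which encodes a GTPase regulator typical of blood cells, had 2490 counts in knockout libraries and 171 in wild type libraries. PLAT, the tissue plasminogen activator gene, rose to 34400 counts in knockout libraries, against 10000 in wild type libraries, and PLTP, the phospholipid transfer protein gene, to 2730 against 908. On the other side, the lysosomal protease gene CTSZ had 37.5 counts in knockout libraries and 2400 in wild type libraries (log2 fold change -6.00, SE 0.137, in the authors' deposited table). MYRF, a membrane-bound transcription factor known from myelinating glia, had 693 counts in knockout libraries and 4410 in wild type libraries. FBXO32, the ubiquitin ligase gene induced in muscle atrophy, fell to 2660 counts in knockout libraries, against 10100 in wild type libraries. C1orf198, BICC1 and PRUNE2 fell too, at -1.94, -1.93 and -2.13 on the log2 scale of the authors' deposited table.

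Genes of chromosome 12 stood higher as a block, which bears on the lists that have members there. Over genes whose mean count reached 100, the chromosome 12 median was 0.512 on the log2 scale (1.43-fold), with 538 called higher and 26 lower of 590. All other chromosomes had medians between -0.0901 (chromosome 10, 72 higher and 196 lower of 417) and 0.041 (chromosome 19). Chromosome 12 held 16.6% of all genes called higher. Whether its genes moved with TRIM37 or with the derived line cannot be told apart, so lists are also counted without it where it matters.

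**Figure D2:**
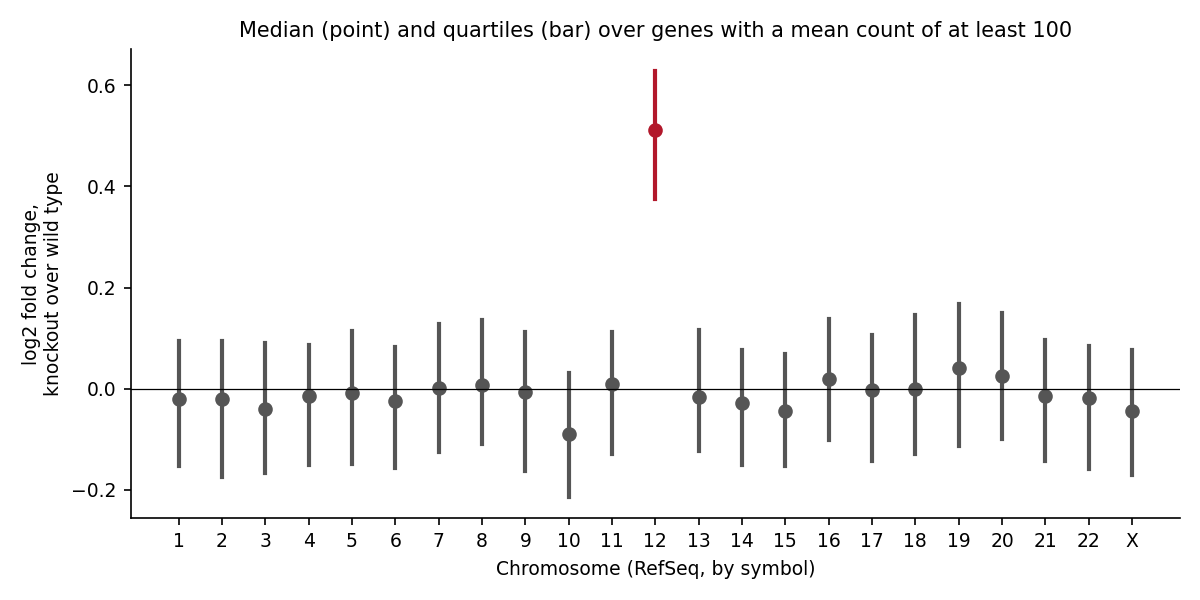
Points are the median and bars the quartiles of the log2 fold change of knockout over wild type (y) for genes whose mean count reached 100, on each chromosome (x). The median of chromosome 12 is 0.512, and every other one lies between -0.0901 and 0.041.

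Contractile and actin-binding genes were lower in the knockout. These encode smooth muscle type actins, myosin light chains, tropomyosins and the cross-linkers of stress fibres, and many are known targets of serum response factor (SRF), which binds the CArG box, and of its actin-sensing cofactors. Of 46 members with the Status OK, 36 fell and 4 rose, with a median of -0.277 against -0.00219 over all genes, and a further 8 had the Status Low and 4 the Status Outlier. Calponin gene CNN1 had 29.8 counts in knockout libraries and 146 in wild type libraries. LMOD1, the leiomodin gene, had 453 counts in knockout libraries and 2130 in wild type libraries. The myosin light chain gene MYL9 had 3520 counts in knockout libraries and 12200 in wild type libraries, and the transgelin gene TAGLN 6230 against 21000. TPM1, an abundant tropomyosin gene, had 44700 counts in knockout libraries and 84100 in wild type libraries, and smooth muscle actin gene ACTA2 1970 against 3590. Their log2 fold changes in the authors' deposited table were -2.29 (SE 0.177), -2.23 (SE 0.0594), -1.79 (SE 0.0421), -1.75 (SE 0.0331), -0.913 (SE 0.0223) and -0.87 (SE 0.0336) in that order. VCL, the vinculin gene, was at -0.0141 (q = 0.259) and MYL6 at 0.0781 (q = 0.0979) in the authors' deposited table. Tested against a 1.5-fold change, 8 members passed downward and 0 upward.

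The promoters of this list are shown because the CArG box, the SRF site, is what the known regulation turns on. The box was searched as its 10-letter consensus, which reads the same on both strands, in the 300 bases from 250 before to 50 after each gene start in RefSeq (GRCh38.p14). It was in 7 of 43 promoters of the list that had a sequence (16.3%), against 351 of 27305 promoters overall (1.29%) and 113 of 10222 promoters of genes with the Status OK (1.11%). The list holds many known SRF targets, so a high share was built into its choice. Whether SRF bears on the fall of its members was not tested. Among members with a promoter sequence, the 4 called members with a box that fell furthest were ACTG2, MYLK, ACTG1 and FLNA. They encode enteric smooth muscle actin, myosin light chain kinase, cytoplasmic gamma-actin and filamin A. TAGLN and MYL9, which fell further than MYLK, ACTG1 and FLNA, had no promoter sequence and were not searched. The 4 genes shown were chosen after their values were seen. The boxes are in capitals:
ACTG2 (chr2:73892758-73893057, plus strand): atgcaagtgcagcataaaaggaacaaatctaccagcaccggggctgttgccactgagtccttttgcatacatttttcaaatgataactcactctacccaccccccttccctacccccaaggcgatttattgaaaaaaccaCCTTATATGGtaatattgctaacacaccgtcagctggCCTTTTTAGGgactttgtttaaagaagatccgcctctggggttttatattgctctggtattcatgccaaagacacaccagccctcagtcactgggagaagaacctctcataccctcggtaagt
MYLK (chr3:123620499-123620798, minus strand): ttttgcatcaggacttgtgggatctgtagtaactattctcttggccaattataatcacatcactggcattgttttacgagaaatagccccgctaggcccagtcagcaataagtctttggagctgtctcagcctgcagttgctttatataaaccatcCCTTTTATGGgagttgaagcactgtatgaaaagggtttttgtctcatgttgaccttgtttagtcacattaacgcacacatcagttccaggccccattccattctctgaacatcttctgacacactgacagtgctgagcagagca
ACTG1 (chr17:81512750-81513049, minus strand): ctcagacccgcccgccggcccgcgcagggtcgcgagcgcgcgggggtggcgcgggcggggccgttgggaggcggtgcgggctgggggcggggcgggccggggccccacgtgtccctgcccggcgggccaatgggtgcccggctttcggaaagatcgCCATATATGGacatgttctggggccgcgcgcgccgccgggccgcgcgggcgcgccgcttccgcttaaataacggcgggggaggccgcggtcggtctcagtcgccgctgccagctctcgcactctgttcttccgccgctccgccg
FLNA (chrX:154374585-154374884, minus strand): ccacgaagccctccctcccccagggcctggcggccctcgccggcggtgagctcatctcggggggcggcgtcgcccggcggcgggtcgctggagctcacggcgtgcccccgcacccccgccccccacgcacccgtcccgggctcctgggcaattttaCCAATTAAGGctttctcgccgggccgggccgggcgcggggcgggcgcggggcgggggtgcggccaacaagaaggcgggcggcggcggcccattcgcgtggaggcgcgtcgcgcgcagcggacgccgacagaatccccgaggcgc
ACTG2 has 2 boxes in this window, and in MYLK, ACTG1 and FLNA the single box begins 94 bases before the gene start. ACTG2 had 8.32 counts in knockout libraries and 31.5 in wild type libraries, close to the count limit. MYLK, ACTG1 and FLNA fell, at -0.637 (SE 0.0335), -0.624 (SE 0.0208) and -0.322 (SE 0.0407) on the log2 scale of the authors' deposited table. ACTG1 has near-identical copies in the genome, and how the authors' counting split such reads is not given. CNN1, LMOD1, TPM1 and ACTA2 have no match to these letters in the window, which is a statement about the window only.

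YAP and TEAD targets, genes switched on by the Hippo pathway's effectors when cells spread, are a related list. Of 27 members 19 fell and 5 rose (median -0.225). The kinase gene NUAK2 had 127 counts in knockout libraries and 439 in wild type libraries. RBMS3, an RNA-binding protein gene, had 687 counts in knockout libraries and 1450 in wild type libraries, and the actin-binding nexilin gene NEXN 3020 against 6300. The classical target CTGF, chosen after its value was seen, moved less, by -0.131 (SE 0.0237) on the log2 scale of the authors' deposited table. The TEAD motif was searched as CATTCC and its reverse complement GGAATG. It was in 8 of the 19 promoters of this list that had a sequence (42.1%) and in 3836 of 27305 overall (14.0%). The CArG box was in 0 of 19. The members of this list were chosen as known targets, so a high share of the motif was built into the choice. Whether TEAD proteins bear on the fall of the members was not tested. The 2 called members with the motif that fell furthest are NUAK2 and TGFB2, with the motifs in capitals:
NUAK2 (chr1:205321696-205321995, minus strand): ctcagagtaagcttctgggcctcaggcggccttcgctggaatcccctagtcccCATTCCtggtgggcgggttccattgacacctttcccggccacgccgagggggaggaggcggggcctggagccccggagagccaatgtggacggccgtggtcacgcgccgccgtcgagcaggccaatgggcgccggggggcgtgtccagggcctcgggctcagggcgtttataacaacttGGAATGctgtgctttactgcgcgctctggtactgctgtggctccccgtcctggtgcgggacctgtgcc
TGFB2 (chr1:218345086-218345385, plus strand): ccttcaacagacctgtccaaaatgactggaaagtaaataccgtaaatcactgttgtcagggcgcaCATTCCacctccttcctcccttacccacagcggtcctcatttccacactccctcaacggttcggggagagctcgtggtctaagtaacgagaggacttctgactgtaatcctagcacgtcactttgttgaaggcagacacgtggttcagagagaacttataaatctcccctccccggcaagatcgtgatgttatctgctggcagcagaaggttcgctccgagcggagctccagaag
Upstream, the Hippo components went both ways, 8 higher and 10 lower of 25 (median -0.0149). AMOT, the angiomotin gene, was at 1.08 and WWC1, the KIBRA gene, at -0.93 on the log2 scale of the authors' deposited table.

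**Figure D3:**
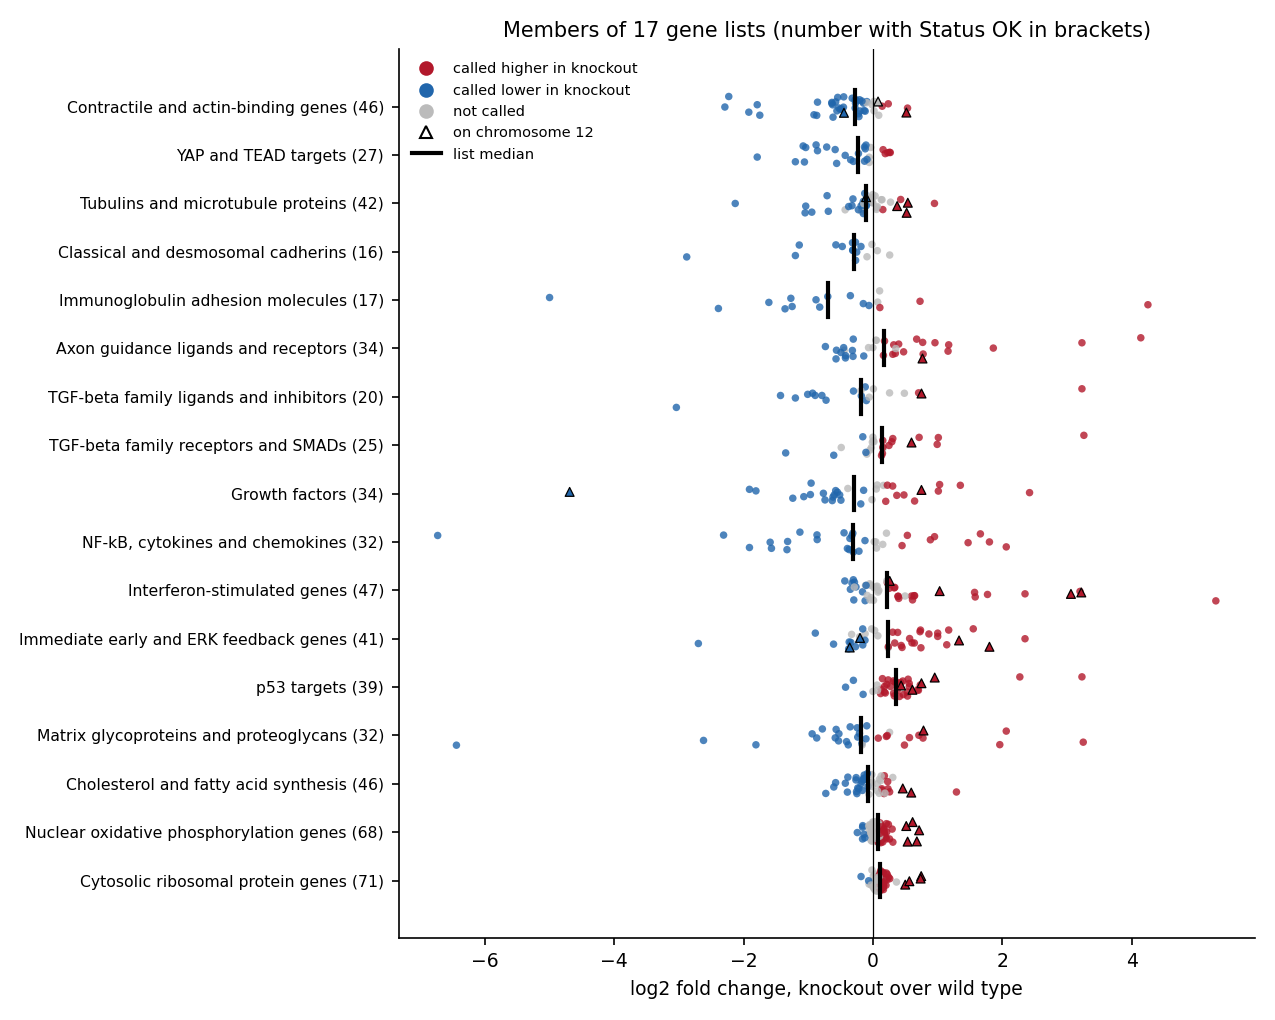
Each point is 1 member with the Status OK of 1 of 17 gene lists (y, number of such members in brackets), placed by its log2 fold change of knockout over wild type (x); black bars are list medians and triangles are genes on chromosome 12. The medians of the contractile, YAP and TEAD, cadherin and immunoglobulin adhesion lists lie left of 0, and those of p53 targets and ribosomal protein genes right of it.

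Microtubule genes were lower too, by less. Of 42 tubulin and microtubule protein genes 19 fell and 6 rose (median -0.104), and without chromosome 12 it was 18 lower and 3 higher of 38. The microtubule-associated protein genes MAP1A and MAP2 fell, at -1.05 and -1.04, and so did the tubulin genes TUBA4A and TUBB2A, at -0.946 and -0.71, on the log2 scale of the authors' deposited table.

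Cadherin and immunoglobulin adhesion genes were lower. Of 16 classical and desmosomal cadherin genes 12 fell and 0 rose (median -0.291). The desmocollin genes DSC2 and DSC3 had 139 and 1040 counts in knockout libraries, against 307 and 1540 in wild type libraries, and CELSR3, a planar polarity cadherin gene, 60.7 against 139. Immunoglobulin adhesion molecules went 12 lower and 3 higher of 17, with a median of -0.699, the lowest of the 69 lists. CADM1, a synaptic and epithelial adhesion gene, had 4.53 counts in knockout libraries and 145 in wild type libraries. NFASC, the neurofascin gene, had 1180 counts in knockout libraries and 3600 in wild type libraries, and PVR, the poliovirus receptor gene, 6040 against 14400. MCAM and CADM4 fell, at -1.36 and -1.27 on the log2 scale of the authors' deposited table, and IGSF3 was the exception with its wide rise. Tight and gap junction genes went 4 higher and 10 lower of 20, with the connexin gene GJA1 at 13100 counts in knockout libraries and 19500 in wild type libraries. The 3 members of that list that moved by 1 log2 unit or more all rose, at low levels: the connexin genes GJB2 and GJA3 had 19.8 and 19.5 counts in knockout libraries, against 2.99 and 6.12 in wild type libraries, and the claudin gene CLDN2 19.1 against 4.73. They lie below the count minimum for named genes and were chosen after their values were seen. Such genes pass the count limit only through their knockout level, so their shared direction carries no weight.

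Axon guidance genes leaned the other way. These ligands and receptors steer neurites and also migrating cells. Of 34 members 17 rose and 11 fell (median 0.169). SEMA4D, a transmembrane semaphorin gene, had 227 counts in knockout libraries and 12.9 in wild type libraries, and UNC5B, a netrin receptor gene, 184 against 19.6. The slit ligand gene SLIT2, the netrin-G gene NTNG1, the plexin gene PLXNA2 and the neuropilin gene NRP2 rose by 1.17, 1.16, 0.958 and 0.775 on the log2 scale of the authors' deposited table. Ephrins and their receptors split, 8 higher and 5 lower of 17. EPHB1 had 176 counts in knockout libraries and 20.9 in wild type libraries, and EPHA5 622 against 1700.

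Integrins, the matrix receptors, were 7 higher and 9 lower of 19, with single members that moved far. The collagen receptor subunit gene ITGA11 fell to 4480 counts in knockout libraries, against 13300 in wild type libraries, while the other collagen receptor subunit gene ITGA2 rose to 6210 against 2610. ITGB3, a vitronectin receptor subunit gene, fell by 1.52 (SE 0.0945), and ITGB8 and ITGA6 rose by 0.70 (SE 0.0499) and 0.541 (SE 0.0295), on the log2 scale of the authors' deposited table.

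Matrix genes changed in composition more than in one direction. Fibrillar collagens were 3 higher and 4 lower of 10, and other collagens 5 higher and 6 lower of 12. COL1A1, a chain of type I collagen, had 1050 counts in knockout libraries and 3610 in wild type libraries. Among basement membrane collagens, COL4A1 had 9500 counts in knockout libraries and 33100 in wild type libraries, COL4A3 120 against 490, and COL4A4 582 against 1720. The short-chain collagen gene COL8A1 fell to 8190 counts in knockout libraries, against 20000 in wild type libraries, while COL17A1 and COL4A6 rose by 1.22 and 0.974 on the log2 scale of the authors' deposited table. Laminins and other basement membrane genes were 7 higher and 3 lower of 12. The laminin gene LAMA4 rose to 10400 counts in knockout libraries, against 3470 in wild type libraries, and LAMB3 and the nidogen gene NID2 fell, NID2 to 2430 against 9430. NID1, its paralog, was at 0.00753 (q = 0.842) on the log2 scale of the authors' deposited table.

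Matrix glycoproteins and proteoglycans were 11 higher and 19 lower of 32 (median -0.192). SULF1, which trims heparan sulfate, had 10.3 counts in knockout libraries and 892 in wild type libraries, and the small proteoglycan gene BGN 63.2 against 389. The periostin gene POSTN had 514 counts in knockout libraries and 54 in wild type libraries, and FMOD, the fibromodulin gene, 279 against 66.9. Collagen processing enzymes were 6 higher and 8 lower of 19, with the procollagen protease gene ADAMTS14 at 64.6 counts in knockout libraries and 513 in wild type libraries and the lysyl oxidase-like gene LOXL3 at 115 against 835. P4HB and PLOD1, the abundant hydroxylase genes, were at -0.0173 (q = 0.525) and 0.0365 (q = 0.191) on the log2 scale of the authors' deposited table.

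Matrix proteases and their inhibitors each split as well, 13 higher and 15 lower of 32 and 9 higher and 6 lower of 19. SERPINE2, which encodes protease nexin, rose to 11600 counts in knockout libraries, against 5540 in wild type libraries. The disintegrin protease genes ADAMTS10 and ADAM12 fell, at -1.97 and -1.16 on the log2 scale of the authors' deposited table. The tissue inhibitor gene TIMP3 had 11.1 counts in knockout libraries and 191 in wild type libraries, and the inhibitor genes SPINT2 and SERPINB1 fell, at -1.24 and -1.63 on the log2 scale of the authors' deposited table.

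**Figure D4:**
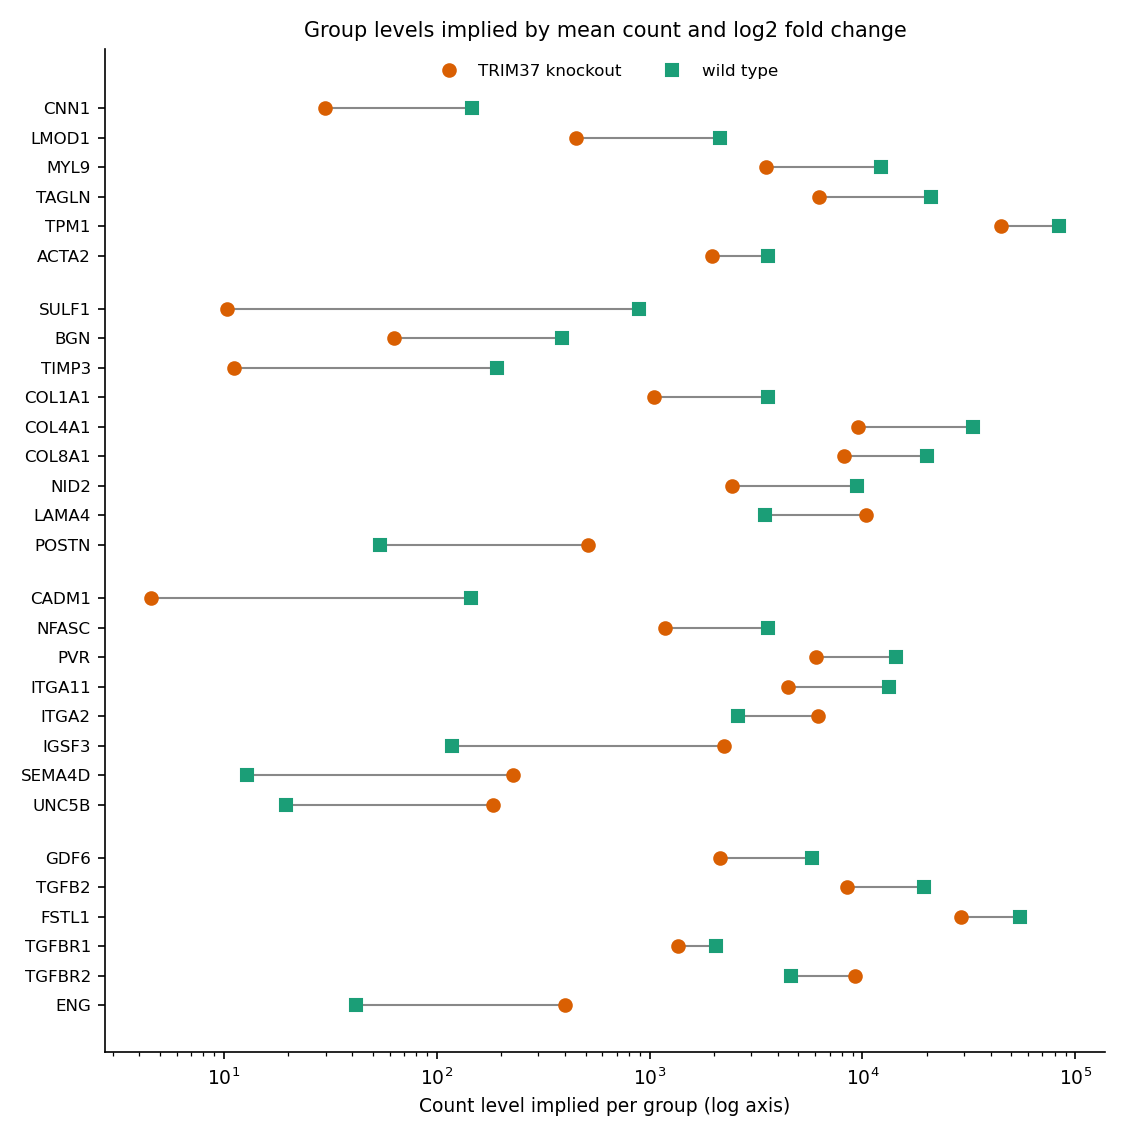
Orange circles (TRIM37 knockout) and green squares (wild type) give the count level implied for each group (x, log axis) for 29 genes of the contractile, matrix, adhesion and guidance, and TGF-beta lists (y). TAGLN is at 6230 in the knockout and 21000 in wild type. The contractile members, GDF6, TGFB2 and FSTL1 lie lower in the knockout, while ENG, TGFBR2, ITGA2 and POSTN lie higher.

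The lists of TGF-beta family genes leaned apart. Ligands and their secreted inhibitors were 3 higher and 12 lower of 20 (median -0.184), and receptors and SMAD proteins 12 higher and 4 lower of 25 (median 0.132). Without chromosome 12 the counts were 2 higher and 12 lower of 19, and 11 higher and 4 lower of 24, with a receptor median of 0.073. Among ligands, GDF6 had 2150 counts in knockout libraries and 5790 in wild type libraries, and TGFB2 had 8490 against 19500. The abundant ligand gene TGFB1 had the Status Outlier and no usable q, and was at 0.411 (SE 0.064) on the log2 scale of the authors' deposited table. The follistatin-like genes FSTL1 and FSTL3 and the BMP antagonist gene GREM1 fell, at -0.934 (SE 0.0129), -1.01 (SE 0.0525) and -0.79 (SE 0.0274) on the log2 scale of the authors' deposited table. Among receptors, the co-receptor gene ENG had 400 counts in knockout libraries and 41.8 in wild type libraries, and TGFBR3 262 against 130. The type II receptor gene TGFBR2 rose to 9180 counts in knockout libraries, against 4620 in wild type libraries, while the type I receptor gene TGFBR1 fell to 1360 against 2060. The decoy receptor gene BAMBI fell by 1.35 (SE 0.0425), and SMAD5 and BMPR2 were at -0.0258 (q = 0.67) and -0.00198 (q = 0.981), on the log2 scale of the authors' deposited table.

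Other signalling genes moved as follows. Growth factor genes were 11 higher and 18 lower of 34 (median -0.289). The platelet-derived growth factor gene PDGFB had 97.6 counts in knockout libraries and 342 in wild type libraries, while the EGF receptor ligand gene TGFA had 324 against 60.5. Receptor tyrosine kinase genes were near the background shares, 8 higher and 9 lower of 27. In the insulin-like growth factor axis, 3 higher and 8 lower of 17, the binding protein gene IGFBP2 had 73.3 counts in knockout libraries and 483 in wild type libraries, and PAPPA2, a protease that cleaves such binding proteins, 608 against 104. Wnt ligands and secreted inhibitors were 3 higher and 7 lower of 13. WNT7B fell by 2.10 (SE 0.172) on the log2 scale of the authors' deposited table, and the very abundant antagonist gene SFRP1 had 149000 counts in knockout libraries and 87100 in wild type libraries. WNT10B and WNT5B, both on chromosome 12, fell, at -0.98 and -0.76 on the log2 scale of the authors' deposited table, against the direction of that chromosome. Hedgehog pathway genes were 8 higher and 2 lower of 17 (median 0.196), with HHIP at 0.555 (SE 0.0322) and GLI3 at 0.345 (SE 0.0554) in the authors' deposited table. Notch pathway genes were 7 higher and 4 lower of 23, with a median of -0.00177.

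Inflammatory and interferon genes parted. NF-kB, cytokine and chemokine genes were 8 higher and 19 lower of 32 (median -0.308). CCL2, a monocyte attractant, had 8.47 counts in knockout libraries and 900 in wild type libraries, IL6 had 32.2 against 95.8, and IL11 347 against 1040. IL1B and IL7 went the other way, IL1B with 929 counts in knockout libraries and 223 in wild type libraries. RELA, the NF-kB subunit gene, was at 0.043 (q = 0.21) in the authors' deposited table. Interferon-stimulated genes were 22 higher and 10 lower of 47 (median 0.213), and 18 higher and 10 lower of 43 without chromosome 12 (median 0.0779). The guanylate-binding protein genes GBP4 and GBP2 had 184 and 234 counts in knockout libraries, against 4.67 and 45.9 in wild type libraries, and IFI44L 460 against 154. The oligoadenylate synthetase genes OAS1 and OAS3, on chromosome 12, rose by 3.22 and 1.03 on the log2 scale of the authors' deposited table. Immediate early and ERK feedback genes were 21 higher and 13 lower of 41 (median 0.237). The transcription factor gene KLF4 had 140 counts in knockout libraries and 27.4 in wild type libraries, the MAP kinase phosphatase gene DUSP4 2620 against 896 and the feedback inhibitor gene SPRY1 295 against 131. The phosphatase gene DUSP8 fell, with 38.9 counts in knockout libraries and 253 in wild type libraries.

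Among developmental regulators, all 9 HOX genes with the Status OK rose, and 30 had the Status Low. A gene nearly silent in wild type cells can pass the count limit through its high knockout level alone, so the count carries no weight. HOXB9 was at 704 counts in knockout libraries and 16 in wild type libraries, and HOXB3 at 349 against 41.5. Both were low in wild type libraries, but above the limit of 10 there too. Homeobox genes outside the HOX clusters were 24 higher and 8 lower of 55, and SOX, FOX, GATA and T-box genes 20 higher and 9 lower of 39. GATA3 had 101 counts in knockout libraries and 4.36 in wild type libraries, FOXO1 489 against 153, and the thyroid and palate regulator gene FOXE1 18.4 against 162. SOX9, abundant in both groups, had 4070 counts in knockout libraries and 2570 in wild type libraries. Of 51 Polycomb and DNA methylation genes, 14 rose and 20 fell (median -0.0304), and 4 of the 14 lie on chromosome 12, AEBP2, KDM2B and YAF2 among them. RNF2, the Polycomb H2A ubiquitin ligase gene, rose by 0.33 (SE 0.0474) and L3MBTL1 fell by 1.46 (SE 0.172) on the log2 scale of the authors' deposited table. Of 57 cancer-testis antigen genes 54 had the Status Low, and of the others TRIML2 had 300 counts in knockout libraries and 5.89 in wild type libraries.

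Channels and receptors at the surface were exchanged member by member. Potassium, sodium and chloride channel genes were 14 higher and 16 lower of 41 (median 0.0492), and 9 higher and 16 lower of 36 without chromosome 12 (median -0.0213). The neuronal sodium channel gene SCN3A had 541 counts in knockout libraries and 2740 in wild type libraries, and SCN9A 1820 against 3980, while SCN2A had 180 against 82.2. Calcium channel and handling genes were 20 higher and 9 lower of 40, and 14 higher and 8 lower of 33 without chromosome 12. The L-type channel gene CACNA1C, itself on chromosome 12, had 5.83 counts in knockout libraries and 177 in wild type libraries, and the ryanodine receptor gene RYR2 97.4 against 5.64. The calcium pump gene ATP2B4 fell to 12300 counts in knockout libraries, against 23900 in wild type libraries. G protein-coupled receptor genes were 23 higher and 16 lower of 55. The adhesion receptor gene GPR98 had 315 counts in knockout libraries and 4.6 in wild type libraries, the serotonin receptor gene HTR7 214 against 58.4, and the chemokine scavenger receptor gene CXCR7 42.5 against 904.

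Translation and respiration genes were higher by small amounts. Of 71 cytosolic ribosomal protein genes 43 rose and 2 fell (median 0.111), and 39 rose and 2 fell of 67 without chromosome 12 (median 0.101). RPL6, on chromosome 12, was the furthest at 28900 counts in knockout libraries and 17300 in wild type libraries, and off that chromosome RPS2 was at 0.259 (SE 0.0432) on the log2 scale of the authors' deposited table. These genes have many processed copies, which the authors' counting may split. Of 68 nuclear oxidative phosphorylation genes 31 rose and 6 fell (median 0.0829), and 26 rose and 6 fell of 63 without chromosome 12. Only 2 ribosomal and 1 respiratory gene passed against a 1.5-fold change, and the ribosomal and respiratory medians are below 0.12 on the log2 scale. Mitochondrial ribosomal protein genes, a family chosen after its values were seen, were 32 higher and 3 lower of 76 (median 0.0914).

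Metabolic lists went both ways. Cholesterol and fatty acid synthesis genes were 10 higher and 23 lower of 46 (median -0.0708), with the sterol enzyme gene CYP51A1 at -0.73 (SE 0.0494) on the log2 scale of the authors' deposited table. FASN, the fatty acid synthase gene, was at 0.12 (q = 0.0681) there. Integrated stress and amino acid genes were 17 higher and 27 lower of 52, and 12 higher and 27 lower of 45 without chromosome 12. The neutral amino acid transporter gene SLC1A4 had 402 counts in knockout libraries and 1350 in wild type libraries, and ASNS, the asparagine synthetase gene, 2500 against 4460, while the glutamate transporter gene SLC1A1 had 251 against 57. Glycolysis and hypoxia genes were 15 higher and 21 lower of 47, and 9 higher and 21 lower of 41 without chromosome 12. PFKFB2, a regulator of glycolytic flux, was at 79 counts in knockout libraries and 539 in wild type libraries and the hypoxia marker gene CA9 at 655 against 1380. Glutathione, NRF2 and metal genes were 24 higher and 13 lower of 55 (median 0.121). The selenoprotein P gene SEPP1 had 290 counts in knockout libraries and 8.27 in wild type libraries, HMOX1, the haem oxygenase gene, 1570 against 792, and the ferritin light chain gene FTL 17600 against 31400. Retinoid genes were 13 higher and 4 lower of 25 (median 0.245). DHRS3, which encodes a retinal reductase, rose to 3050 counts in knockout libraries, against 1550 in wild type libraries, while RARRES1 had 3.96 against 113.

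Chaperones as a list were near the background, 17 higher and 15 lower of 53 (median -0.0178). The small heat shock protein genes HSPB7, CRYAB and HSPB6, known from muscle, fell. HSPB7 had 40.9 counts in knockout libraries and 845 in wild type libraries, CRYAB 48.4 against 388, and HSPB6 84.4 against 148. HSPB8, on chromosome 12, rose to 943 counts in knockout libraries, against 673 in wild type libraries, but was at -0.0235 on the log2 scale with chromosome medians removed. HSPA8 and HSP90AB1, the constitutive chaperone genes, were at 0.0568 (q = 0.207) and 0.0407 (q = 0.0516) on the log2 scale of the authors' deposited table.

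Genes of the structures in which the TRIM37 protein acts moved little. Centriole duplication and mitotic surveillance genes were 9 higher and 10 lower of 41, TRIM37 among them, with a median of 0.0148. Pericentriolar and gamma-tubulin genes were 9 higher and 8 lower of 43, and primary cilium genes 12 higher and 13 lower of 58, or 7 higher and 13 lower of 53 without chromosome 12. STIL, a cartwheel assembly gene, was at 0.0454 (q = 0.328), CENPJ, which sets centriole length, at -0.111 (q = 0.0136), and NEDD1, which recruits gamma-tubulin, at 0.0301 (q = 0.521), on the log2 scale of the authors' deposited table. Peroxisome genes were 7 higher and 15 lower of 42, again with TRIM37 counted. Cyclins and their kinases were 17 higher and 9 lower of 41, and 13 and 9 of 37 without chromosome 12. DNA replication genes were 18 higher and 11 lower of 58, and G2, mitosis and kinetochore genes 25 higher and 11 lower of 64, or 19 and 11 of 58 without chromosome 12, with a median of -0.0038 there. CCNA2 and CDK1, drivers of S phase and mitosis, were at 0.0187 (q = 0.776) and -0.00598 (q = 0.882) on the log2 scale of the authors' deposited table. The p53 targets stood apart from these, 33 higher and 3 lower of 39 (median 0.358), and 29 and 3 of 35 without chromosome 12. PTCHD4 had 239 counts in knockout libraries and 49.5 in wild type libraries, and the antiproliferative gene BTG2 407 against 253.

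Few genes were called alike in both TetOn clones, so few of the knockout's genes could be called the other way on induction of TRIM37 with doxycycline. No RPE1 cells without the inducible TRIM37 were given doxycycline. An effect of the drug therefore cannot be told apart from one of TRIM37 wherever induction is named. Doxycycline changed 237 of 12153 genes in TetOn clone 4 (1.95%, with 0.716% up and 1.23% down) and 362 of 12195 in clone 5 (2.97%, with 0.795% up and 2.17% down). Of 11629 genes with the Status OK in all 3 tables, 6272 were called in the knockout. In both TetOn clones 104 were called with 1 sign, and 89 of these were called in the knockout. In 50 the sign was opposite, 41 higher and 9 lower in the knockout, and in 39 it was the same. The 50 include TRIM37, whose sign was fixed in advance. The 50 make up 0.797% of the knockout's calls and 48.1% of the genes called alike in both TetOn clones. The first share had to be small, since no more than 104 genes could enter it. ITGA2 was at 1.25 (SE 0.0484) in the knockout, -0.574 (SE 0.0412) in clone 4 and -0.512 (SE 0.0548) in clone 5 on the log2 scale of the authors' deposited tables. PTX3, a secreted pattern recognition protein gene, was at 0.951, -0.461 and -0.763 in the same order, and HHIP, which encodes a hedgehog antagonist, at 0.555, -0.374 and -0.521, in the authors' deposited tables. TM4SF18, S1PR3 (a sphingosine phosphate receptor gene), SEMA3D, KCNJ2, NFKBIZ and ALDH1A3 (a retinaldehyde dehydrogenase gene) were likewise higher in the knockout and lower on induction. For these 9 genes the knockout changes lay between 0.299 and 1.28 and the induction changes between -0.763 and -0.314 on the log2 scale of the authors' deposited tables. Of the genes with wide changes in the knockout, LMOD1 was at -0.0867 (q = 0.939) in clone 4 and -0.248 (q = 0.0389) in clone 5, and CTSZ at 0.0235 (q = 0.962) in clone 4 and -0.0496 (q = 0.774) in clone 5, as the authors' deposited tables give them. FBXO32, lower in the knockout, was also lower on induction, at -0.393 and -0.408 in the authors' deposited tables.

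Genes called alike in both CHP-134 mutants went both ways in the knockout. In those cells 2388 of 12791 genes were called in clone 1 (18.7%, with 9.6% up and 9.07% down) and 5898 of 12771 in clone 2 (46.2%, with 22% up and 24.2% down), both against the same wild type libraries, so the 2 clones are not independent of each other. Of 11054 genes with the Status OK in all 3 tables, 5769 were called in the knockout. In both mutant clones 1058 were called with 1 sign, and 579 of these were called in the knockout. In 334 the sign was the same as in the knockout, 165 higher and 169 lower, and in 245 it was opposite. The 334 are 5.79% of the knockout's calls and 31.6% of the genes called alike in both mutant clones. PTCHD4 was at 2.27 (SE 0.142) in the knockout, 1.2 (SE 0.177) in clone 1 and 1.53 (SE 0.179) in clone 2 on the log2 scale of the authors' deposited tables. PRR7, VPS37D, CYFIP2 and ZNF771 rose in all 3, between 0.637 and 0.925 in the knockout and between 0.727 and 1.45 in the clones in the authors' deposited tables. AIFM2, which encodes an oxidoreductase that protects against lipid peroxidation, and CYP26B1, which degrades retinoic acid, fell in all 3, at -0.642 and -0.653 in the knockout in the authors' deposited table. Of 10284 genes with the Status OK in all 5 tables, 2 were called in each with the sign of the TRIM37 dose, TRIM37 and DUSP4. For TRIM37 that sign was fixed in advance, since it set the direction of each table. DUSP4 was at 1.55 (SE 0.0401) in the knockout, 2.68 (SE 0.183) and 1.51 (SE 0.21) in the mutant clones, and -0.186 (SE 0.0413) and -0.194 (SE 0.0383) on induction, in the authors' deposited tables.

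**Figure D5:**
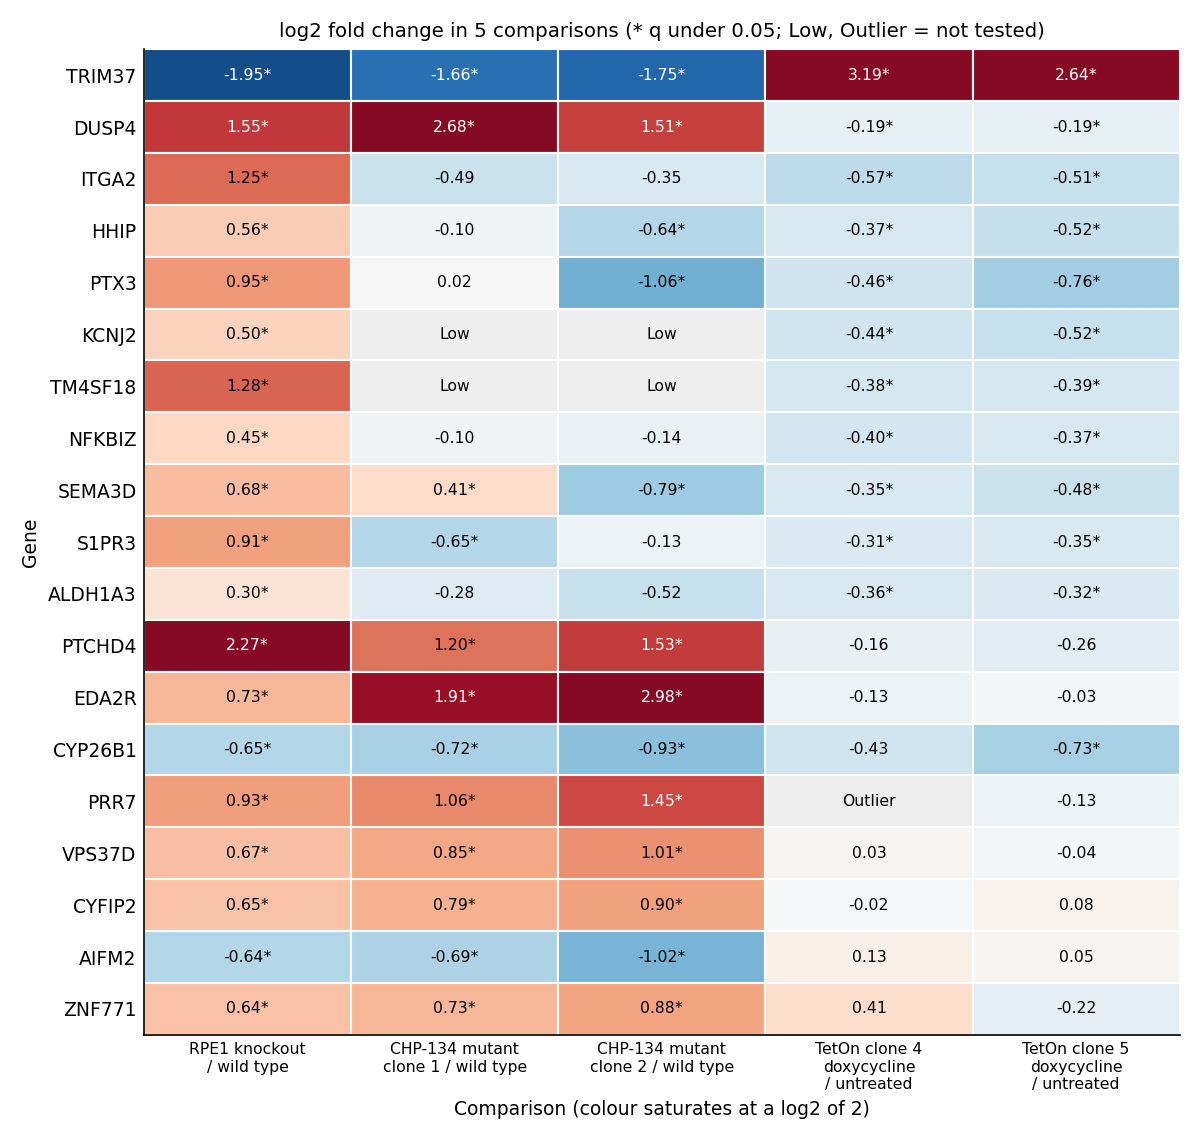
Numbers and colour give the log2 fold change of TRIM37, DUSP4 and 17 further genes (rows) in 5 comparisons (columns), with an asterisk at a q under 0.05. DUSP4 is higher in the 3 columns with less TRIM37 and lower in both induction columns, at -0.19; the 9 genes from ITGA2 to ALDH1A3 are higher in the knockout and lower on induction.

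The difference itself between the knockout and each CHP-134 mutant was tested for every gene, by dividing the gap between its 2 log2 fold changes by their joint SE, with Benjamini-Hochberg adjustment. It passed an adjusted p under 0.05 for 3813 of 11194 genes against clone 1 (34.1%) and for 5185 of 11160 against clone 2 (46.5%). Both of the following passed against each clone. IGSF3, at 4.25 in the knockout, was at 0.00982 in clone 1 and 0.0771 in clone 2 in the authors' deposited tables, and C1orf198, at -1.94, was at -0.0245 and 0.00192. TRIM37 itself fell further in the knockout, with a difference of -0.29 from clone 1 (adjusted p = 3.51e-06) and of -0.20 from clone 2 (adjusted p = 0.00393). CYFIP2 differed by -0.135 from clone 1 (adjusted p = 0.396) and by -0.248 from clone 2 (adjusted p = 0.0603), which does not show that the changes are equal.

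Some abundant genes could not be judged. The Status Outlier covered 278 genes, 219 of them with a mean count of at least 1000. FN1, the fibronectin gene and the most abundant of all, was at -0.202 (SE 0.0551) with an implied 488000 counts in knockout libraries and 562000 in wild type libraries, and the fibrillin gene FBN1 was at -0.934 (SE 0.063) with 36100 against 68900, both with a q of 1 in the authors' deposited table. AHNAK, VCAN and LRP1 followed by mean count, at 0.178, -0.185 and 0.39 on the log2 scale of the authors' deposited table. At the lower edge, the OK genes of lowest mean count, FAHD2CP, ANKRD6 and C16orf71, stood at 10 counts, and the Low genes of highest mean count, SNORA5A, CAHM and HIST2H2AC, between 9.96 and 9.99.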

How the data were processed

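RNA sequencing libraries of RPE1 TRIM37 knockout and wild type cells were compared by the authors, who used STAR and DESeq2 per the submitters' processing notes, with no versions named; the sources used here do not give the build, the annotation, the strand setting or how reads were counted. The authors' deposited tables each hold, per the file headers, a Status, a mean count (a score whose scaling is not stated), a log2 fold change with its SE, and a q-value (an adjusted p-value) per gene symbol. No value per library was analysed here, so depth per library is unknown and precision is that of the authors' SE, median 0.0551 over genes with the Status OK. It ran from a median of 0.312 at mean counts of 10 to 30 to 0.0253 above 10000. No count model was fitted, since the tables hold no counts per library.

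Calls are the authors' q under 0.05. Implied group levels are 2 times the mean count times r/(1+r) for the knockout and 2 times the mean count/(1+r) for wild type, r being the fold change. Differences between tables used a two-sided normal test with Benjamini-Hochberg adjustment, tested on simulated data. The members and gene lists were chosen with earlier results of these data known, and lists are described by counts and medians with no list test. Alternatives were other q limits, minimum folds and mean counts, Outlier genes kept, rescaled statistics, and chromosome 12 or the chromosome medians removed. Named genes are TRIM37, the 10 widest rises and falls at a mean count of at least 1000, for each list up to 6 called members of widest change and 2 uncalled of highest mean count (at least 50), 10 genes shared with each pair of clones, 5 Outlier genes, 6 at the count limit and centrosome, p53 and Polycomb genes, only part of which are printed; some are not reported here. Chromosomes, gene order and promoters came from RefSeq (GRCh38.p14), which matched 22692 of 23710 symbols. Python 3.11.15, pandas 2.3.3, numpy 2.4.6 and scipy 1.17.1 were used.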

Additional observations from a re-analysis of the deposited data

Results flagged for a closer look

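The test of the difference (adjusted p under 0.05) passed for 34.1% of all genes against CHP-134 mutant clone 1 and 46.5% against clone 2, so a difference is common, and TRIM37, IGSF3 and C1orf198 are among other named genes that passed against both. The 9 genes given here, shared with the mutants or with roles in centrioles, the p53 pathway, peroxisomes or Polycomb, differed from both clones with the same sign. Values are knockout minus mutant on the log2 scale, clone 1 first. PTCHD4 differed by 1.07 and 0.74, although it rose in all 3 tables, and EDA2R, a death receptor gene that also rose in all 3, by -1.18 and -2.25. CDKN1A, the cell cycle inhibitor gene, differed by -0.67 and -1.33, so that its rise was smaller in the knockout. MDM2, which encodes the ligase of p53, differed by 0.886 and 0.813, and the peroxisomal import receptor gene PEX5 by 0.326 and 0.275. The kinase gene PLK4, the trigger of centriole duplication, differed by 0.248 and 0.327, STIL by 0.205 and 0.178, and NEDD1 by 0.226 and 0.283. MDM2, PEX5 and NEDD1 lie on chromosome 12, whose median in the knockout was 0.512. RNF2 differed by 0.491 and 0.538. The clones share their wild type libraries, so the values against clone 1 and clone 2 are not independent.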

How the results depend on the processing

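No paired analysis was possible because no value per library was analysed here, and for the same reason no replicate was left out. In the order main, then alternative, the 6963 knockout calls (3460 higher, 3503 lower) became 1646 (834 and 812) at a change of at least 1.5-fold, 780 (359 and 421) at 2-fold, 888 (426 and 462) tested against 1.5-fold and 1264 (672 and 592) with rescaled statistics. They stayed within 1.5 times the main count at a q under 0.01 or 0.1, at a mean count of at least 50 or 100, with Outlier genes kept, and without chromosome 12 (2884 higher, 3462 lower) or its and the other chromosomes' medians. The 50 genes moved the other way by induction became 32 at a q under 0.01, 1 at 1.5-fold, at 2-fold and tested against 1.5-fold, and 27 rescaled. The 1 is TRIM37, whose sign was fixed in advance. The 334 shared with CHP-134 became 154 at a q under 0.01, 513 at a q under 0.1, 21 at 1.5-fold, 3 at 2-fold, 3 tested against 1.5-fold and 5 rescaled. Rescaled, the difference test called 650 genes against clone 1 and 529 against clone 2. Removing chromosome medians turned 15 called genes of chromosome 12 below 0: C1R (-0.0945), KRT18 (-0.159), CEP290 (-0.0925), TCTN2 (-0.0065), BBS10 (-0.103), CDK2 (-0.0335), PRIM1 (-0.0525), POLE (-0.0885), NCAPD2 (-0.0345), RECQL (-0.0285), HSPB8 (-0.0235), PEX5 (-0.144), ACACB (-0.0515), RPLP0 (-0.0135) and KRT7 (-0.177). Beyond fewer genes tested or stricter limits the cause was not tested. The median of fibrillar collagens moved from 0.158 to -0.333 at a mean count of at least 100. In addition, 1 list moved without chromosome 12 and 1 with chromosome medians removed, while 67 did not in either setting.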

Other observations

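Several genes with the Status Outlier had wide differences that carry no usable q; they were chosen after their values were seen. GFRA1, the co-receptor gene for glial cell line-derived neurotrophic factor, had an implied 41.6 counts in knockout libraries and 5320 in wild type libraries, and its log2 fold change in the authors' deposited table was -7.00 (SE 0.132). PLXNA4, a semaphorin receptor gene, had 8610 counts in knockout libraries and 253 in wild type libraries, at 5.09 (SE 0.0934) in the authors' deposited table. Of the 278 such genes 10 differed by at least 1 on the log2 scale.

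Zinc finger genes with a ZNF symbol, a family picked after its values were seen, were 68 higher and 111 lower of 443 with the Status OK (median -0.0486), and at 1 log2 unit or more the counts were 3 higher and 24 lower. Clustered protocadherin genes, also picked afterwards, were 9 higher and 2 lower of 31 (median 0.109). Small nucleolar RNA genes were 1 higher and 8 lower of 109, and solute carrier genes 56 higher and 80 lower of 222.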
